A study of Rattus norvegicus with 6 samples.

Results

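The cytochrome P450 genes of families 1 to 3 were examined in liver RNA of the HFD group (3 animals on high-fat feed) and the HTG group (3 animals on the same feed that also received HTG, the Huazhuo Tiaozhi granule, a herbal formula). All protein-coding rows of the deposited table whose symbol named a member of these families were taken, and 54 of the 32930 gene rows met this rule, 3 of family 1, 42 of family 2 and 9 of family 3. One of the 54, Cyp2d13, had a coding transcript type only as protein_coding_LoF, a loss-of-function model. A further 11 rows carried the name of a P450 pseudogene and were kept apart. All 6 samples are labelled as fatty liver, with 0.5% CMC-Na for the HFD group and an intervention of 12 weeks. The treatment label of the HTG samples spells the agent HCG. For rats, the paper describes dosing only in the later part of the high-fat feeding, with the drugs also given in CMC-Na. How long the animals of these libraries were dosed is therefore uncertain, and the vehicle may not be particular to the HFD group. The labels name rats, the RNA sequencing methods name dyslipidaemic C57BL/6 J mice, and the gene rows are mouse Ensembl genes, so the values are described as mouse genes. The series describes 6 animals for the 6 libraries, their sex and age are not in the labels, and no library of animals on another diet was analysed here. The submitters' processing notes list the rat build mRatBN7.2, so the coordinates below are those of the table, without a build.

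P450 enzymes of families 1 to 3 are heme proteins of the endoplasmic reticulum that oxidise drugs, plant compounds, steroids and fatty acids. The liver holds most of them, and electrons reach them from the reductase Por and from cytochrome b5. Several are induced by receptors that sense foreign compounds: the aryl hydrocarbon receptor Ahr acts on the CYP1A genes, the constitutive androstane receptor CAR (Nr1i3) on CYP2B and CYP2C genes, and the pregnane X receptor PXR (Nr1i2) on CYP3A genes.

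Deposited estimated counts summed to between 50648778 and 90563477 per library, HTG library 3 having the fewest. Among the lowest counts 4 occurred 6450 times, 3 only 2549 times and 5 only 1757 times, so 1 sequenced fragment was read as about 4 counts. The sources used here do not state this factor. On that reading depth lay between 12662194 and 22640869 fragments. An empty gene then allows 3 fragments, or 12 counts, which covers counting error only. Hepatocyte markers were present in every library, the 8 of 9 listed markers found in the table summing to 47139 to 53715 FPKM in the HFD group and 48057 to 52907 FPKM in the HTG group (FPKM, fragments per kilobase of transcript scaled to library size). Markers of adipocytes, exocrine pancreas and kidney summed to at most 7.08 FPKM in any library, and Adipoq, Pnlip and Ctrb1 had no count at all. Less RNA of a gene per cell and fewer cells of a type cannot be told apart in these libraries.

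Expression of the 54 genes covered a wide range. On the per-length FPKM scale, 20 genes had a mean over the 6 libraries above 100, 14 lay between 1 and 100, and 20 lay under 1. The 20 highest genes held between 93.7% and 96.9% of the summed FPKM of all 54 in each library. Cyp2e1, which oxidises ethanol and acetaminophen, ranked first of the 54 in each of the 6 libraries and between rank 18 and rank 50 of all genes in the table. Cyp2a5, the coumarin hydroxylase, was the second gene in every HFD library and was in rank 4, 8 and 14 of the 54 in HTG libraries 1, 2 and 3. Cyp2d26 and Cyp2d10 stood in rank 2 to 6 in all libraries.

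**Figure D1:**
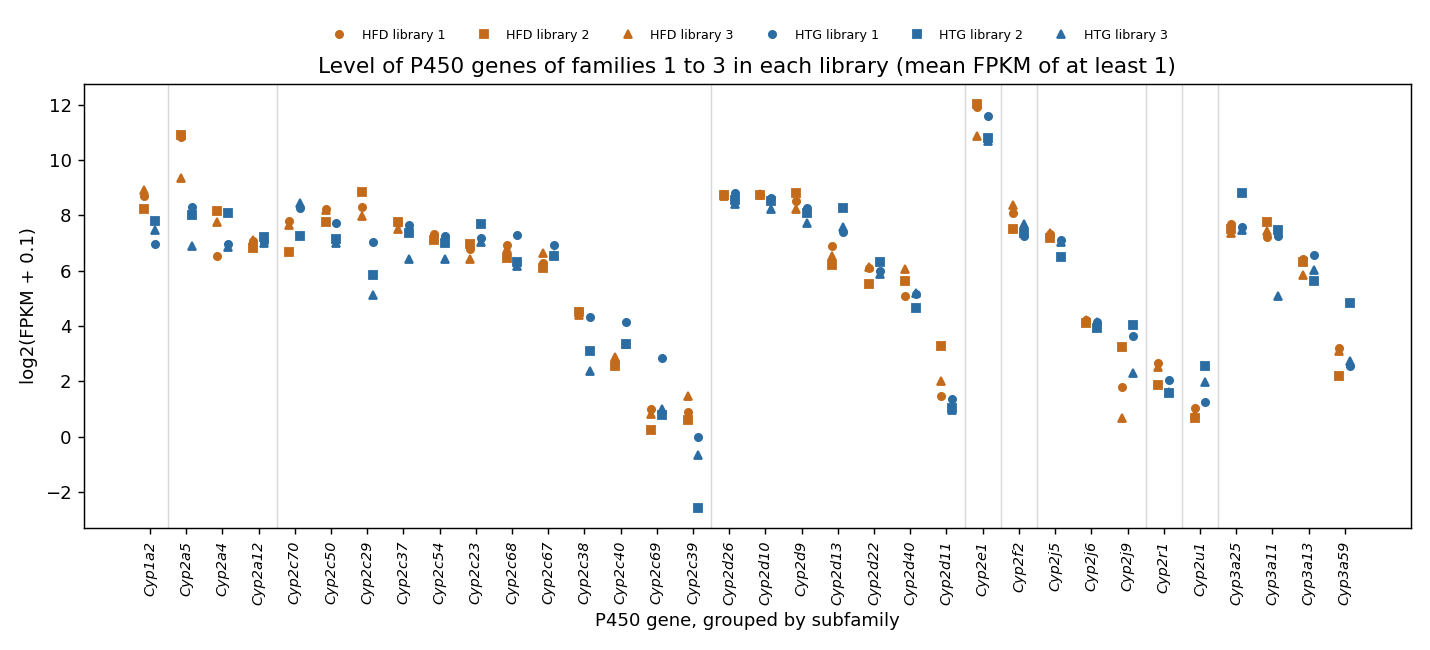
Level of each P450 gene whose mean FPKM reached 1, as log2(FPKM + 0.1) on the vertical axis, with genes grouped by subfamily on the horizontal axis and 1 point per library (orange HFD, blue HTG). Cyp2e1 is highest in every library, and the HTG points of Cyp2a5, Cyp2c29 and Cyp1a2 lie below all HFD points of the same gene.

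The summed FPKM of the 54 genes was 10221 FPKM, 10545 FPKM and 7090 FPKM in HFD libraries 1, 2 and 3, while HTG libraries 1, 2 and 3 reached 7463, 6162 and 4962 FPKM. HTG library 1 lay above HFD library 3, so the groups overlapped, with means of 9285 ± 1908 and 6196 ± 1251 FPKM (SD, n = 3 per group). As a share of the summed FPKM of each library the genes took 2.32%, 2.46% and 1.74% in the HFD group and 1.56%, 1.17% and 0.97% in the HTG group, and on that scale the groups did not overlap, nor did they in summed FPKM without Cyp2e1, at 5211 to 6395 against 3327 to 4378. The summed FPKM over all genes was itself higher in the HTG group, at 478690 to 527047 against 407973 to 441305. Of the difference of 3090 FPKM between the group means of the 54 genes, Cyp2a5 made up 40.1%, Cyp2e1 36.3%, Cyp2c29 8.72% and Cyp1a2 7.15%, and Cyp2d13 offset it by the most, 127 FPKM in the other direction. Without Cyp2d13 the sums were 6998 to 10472 FPKM in the HFD group and 4768 to 7296 FPKM in the HTG group, with overlap. These sums are given as a description without a test.

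**Figure D2:**
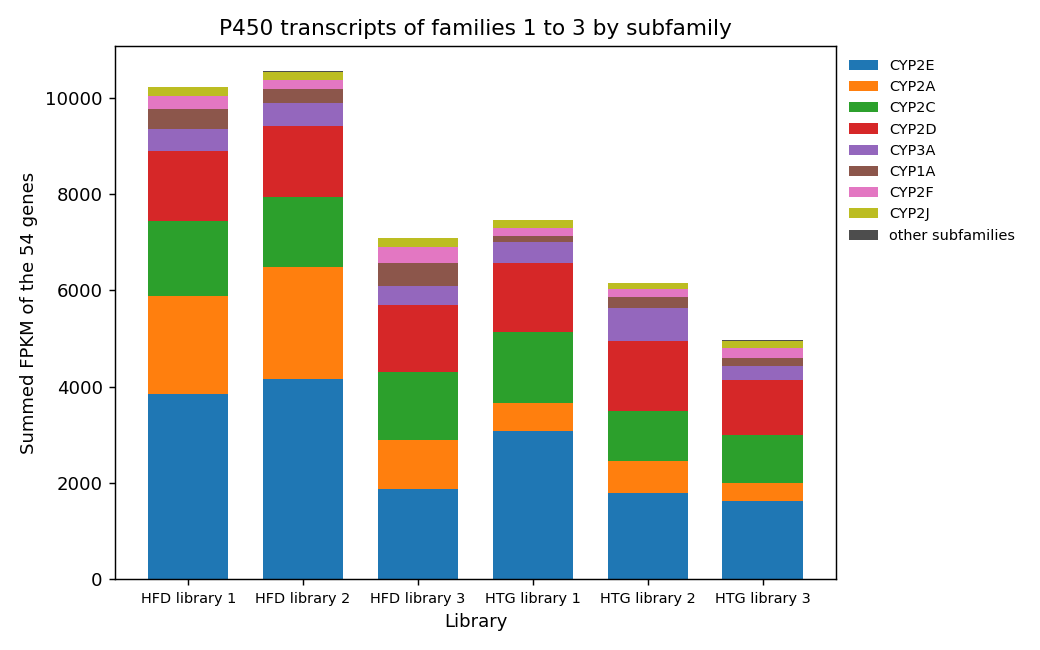
Summed FPKM of the 54 P450 genes in each library, stacked by subfamily, with libraries on the horizontal axis. The CYP2A layer is 1012 to 2330 FPKM in the HFD libraries and 365 to 678 FPKM in the HTG libraries, while the CYP2D layer is 1387 to 1474 FPKM and 1140 to 1435 FPKM.

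Counts were scaled between libraries by the TMM method and compared by edgeR's quasi-likelihood test across all genes, and levels of 1 gene are given below as normalised counts (CPM, counts scaled to a common library size). A gene is said to have risen or fallen at an adjusted p under 0.1 (Benjamini-Hochberg over the 18455 genes tested). Of the 54 P450 genes 44 passed the expression filter and were tested. The 10 that did not were Cyp2b9, Cyp2b13, Cyp2b19, Cyp2d34, Cyp2j11, Cyp3a16, Cyp3a41a, Cyp3a41b, Cyp3a44 and Cyp3a57. In 6 of these 10 no library exceeded what an empty gene allows, and none reached more than 33 counts in any library.

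Cyp2c40, Cyp2d13 and Cyp2u1 rose, and Cyp1a2, Cyp2a5 and Cyp2c29 fell in the HTG group. The 3 rises were 6.82% of the P450 genes tested, against 5.41% of all genes tested, and the 3 falls were also 6.82%, against 5.43%. Without Cyp2d13 the 2 rises were 4.65% of 43 genes tested and the 3 falls 6.98%. At this edgeR threshold the share called was thus near that of all genes in both directions. DESeq2 called 3 higher and 8 lower of the 44 at the same threshold, these 6 genes among them. Of all genes it called 8.58% and 9.91%, so its lower share was larger among the 44. At an adjusted p under 0.05 none of the 44 was called in edgeR, where 0.0108% of all genes were. DESeq2 called 3 higher and 7 lower of the 44 at that stricter adjusted level, against 5.78% and 7.02% of all genes. An unadjusted p under 0.05 in edgeR was met by 4 genes upward (9.09%, against 12.3% of all genes) and 9 downward (20.5%, against 12.4%). With the further condition of an absolute log2 fold change over 1, an unadjusted p under 0.05 was met by 3 higher and 7 lower of the 44. Of all genes 4.97% and 3.88% met it, so the lower share was larger among the 44. All HTG values lay below all HFD values in 11 of the 44, or 25.0%, against 15.5% of all genes, and above them in 5, or 11.4%, against 16.5%. The median log2 fold change of the 44 was -0.23, and that of all genes tested was 0.03. Fitted values were lower in the HTG group for 27 of the 44, or 61.4%, and for 48.4% of all genes. With 3 libraries in each group the smallest p of an exact two-sided permutation test on 1 gene is 0.1. The 6 calls each had an adjusted p under 0.1 without HTG library 1, and above it when any other single library was left out, where at most 9 genes of the whole table passed in either direction in 4 of the 5 fits and 203 and 214 did without HFD library 1. Each of the 6 kept an unadjusted p under 0.05 in all 6 of those edgeR fits.

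**Figure D3:**
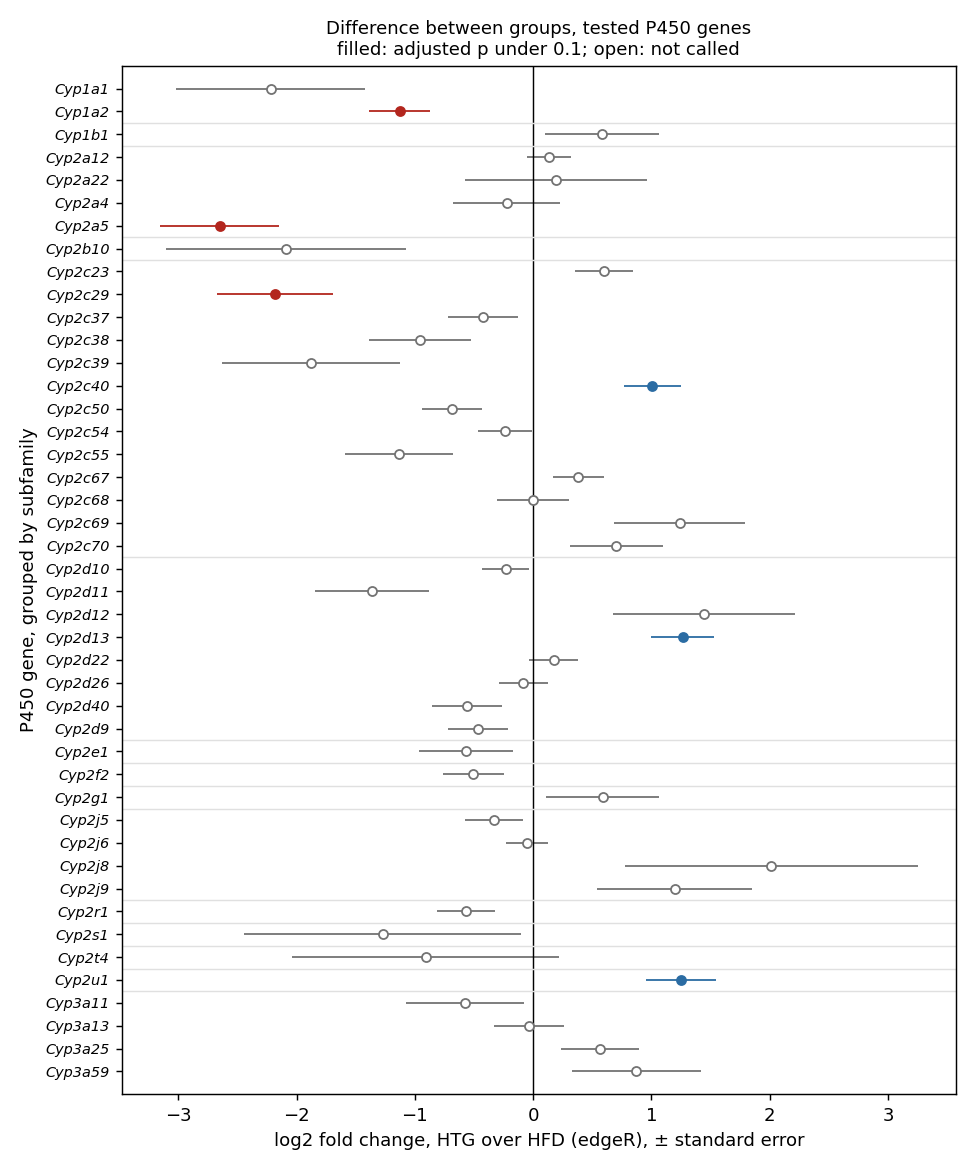
Log2 fold change of HTG over HFD with its standard error for each of the 44 tested P450 genes, grouped by subfamily on the vertical axis. Filled points mark an adjusted p under 0.1 in edgeR, Cyp1a2, Cyp2a5 and Cyp2c29 to the left of 0 and Cyp2c40, Cyp2d13 and Cyp2u1 to the right.

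Both CYP1A genes had lower values in the HTG group. Cyp1a2, which oxidises caffeine and aromatic amines, lies on chromosome 9 at 57584220 to 57590986 on the minus strand. It had 829, 664 and 968 CPM in HFD libraries 1, 2 and 3 and 273, 446 and 406 CPM in the HTG libraries, and no HTG library reached an HFD library. The mean was 820 ± 152 CPM with HFD and 375 ± 90.6 CPM with HTG (SD, n = 3 each), so the gene fell by 1.13 on the log2 scale (standard error 0.26, adjusted p = 0.0616 in edgeR). Its neighbour Cyp1a1, the best known gene of the aryl hydrocarbon receptor, was low, with HTG library 1 within what an empty gene allows. Its estimated counts were 94, 37 and 98 in HFD samples against 3, 25 and 20 in HTG samples. The groups did not overlap in CPM, and the log2 fold change of -2.22 (standard error 0.80) had an adjusted p of 0.136 in edgeR and 0.042 in DESeq2. Cyp1b1, a family 1 gene expressed mostly outside the liver, ranged from 32 to 96 counts and overlapped between the groups (log2 fold change 0.58, standard error 0.48).

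Among the 4 CYP2A genes Cyp2a5 fell and the other 3 were not called. Cyp2a5 (chromosome 7, 26534730 to 26542973, plus strand) had 3769, 4437 and 1370 CPM in HFD libraries 1, 2 and 3, and 710, 529 and 286 CPM in HTG libraries 1, 2 and 3. HFD library 3 stood well below the other HFD libraries and above every HTG library. From 3192 ± 1613 to 508 ± 213 CPM (SD, n = 3 per group), the gene fell by 2.65 on the log2 scale (standard error 0.50, adjusted p = 0.058 in edgeR), which is 6.28-fold, and the largest fall among the 44 genes. Its log2 fold change stayed between -3.02 and -2.34 in the 6 fits that each lacked 1 library.

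Cyp2a4, a testosterone hydroxylase whose sequence is nearly identical to that of Cyp2a5, had 161, 545 and 377 CPM in the HFD libraries and 231, 464 and 233 CPM in the HTG libraries, and the groups overlapped (log2 fold change -0.22, standard error 0.45). How the counting split reads between such copies is not stated, so the separate values of Cyp2a4 and Cyp2a5 are uncertain. Summed with the pseudogene Cyp2a21-ps, the CYP2A copies still did not overlap, at 1929, 2232 and 875 FPKM in the HFD libraries and 445, 529 and 237 FPKM in the HTG libraries. In CPM the abundant Cyp2a12 was slightly higher in every HTG library (log2 fold change 0.13, standard error 0.18). It had 430 to 481 CPM in the HFD group and 491 to 509 CPM in the HTG group. In FPKM the groups overlapped, at 112 to 138 and 128 to 149. Cyp2a22 stayed at or below 5.78 CPM.

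CYP2B genes, the classic targets of CAR and phenobarbital, were nearly silent. Counts of Cyp2b10 were 101, 255 and 105 with HFD, against 85, 45 and 0 with HTG. Normalised for depth the HTG libraries lay below the HFD libraries, yet the adjusted p was 0.245 in edgeR (log2 fold change -2.09, standard error 1.01). Cyp2b9, Cyp2b13 and Cyp2b19 had at most 8 counts in any library, within what an empty gene allows.

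The 13 CYP2C genes, which epoxidise arachidonic acid and oxidise many drugs, moved in both directions, with 1 rise and 1 fall and log2 fold changes from -2.18 to 1.24. Cyp2c29 (chromosome 19, 39257849 to 39319143, plus strand) had 968, 1559 and 785 CPM in the HFD libraries and 433, 174 and 122.8 CPM in the HTG libraries. Every HTG library lay below every HFD library, and from a mean of 1104 ± 405 CPM against 243 ± 166 CPM (SD, n = 3 each) the gene fell by 2.18 on the log2 scale (standard error 0.49, adjusted p = 0.0613 in edgeR), and by 2.93 without HTG library 1. Cyp2c40 (chromosome 19, 39755515 to 39801258, minus strand), a lower-level member that hydroxylates arachidonic acid, went the other way, with 12.9, 13.05 and 15.05 CPM in the HFD libraries and 38.2, 20.5 and 23.8 CPM in the HTG libraries. HTG library 1 was the highest, and the group means were 13.7 ± 1.20 and 27.5 ± 9.44 CPM (SD, n = 3 each). The rise was 1.01 on the log2 scale (standard error 0.24, adjusted p = 0.0654 in edgeR), and 0.65 without HTG library 1, the lowest value with any 1 library left out.

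Both genes belong to 1 block of 12 CYP2C genes within 1180 kb on chromosome 19, and their neighbours differed in sign. In chromosomal order Cyp2c55 (-1.13), Cyp2c29 (-2.18), Cyp2c38 (-0.96) and Cyp2c39 (-1.88) had negative log2 fold changes, followed by Cyp2c67 (0.38), Cyp2c68 (-0.001), Cyp2c40 (1.01) and Cyp2c69 (1.24), and then by Cyp2c37 (-0.42), Cyp2c54 (-0.24), Cyp2c50 (-0.69) and Cyp2c70 (0.70). Apart from Cyp2c29 and Cyp2c40 none of these had an adjusted p under 0.1 in edgeR, and these genes resemble each other in sequence, so reads may be shared among them. Cyp2c39 counts were 219, 191 and 352 with HFD, against 138, 12 and 52 with HTG, an order that held without overlap in CPM (standard error 0.75, adjusted p = 0.171 in edgeR). Cyp2c55, found mostly in the gut, had 104, 131 and 182 counts against 35, 128 and 46 counts, also without overlap in CPM (standard error 0.46, adjusted p = 0.171 in edgeR). DESeq2 called 4 of the 13 CYP2C genes lower at an adjusted p under 0.1, in all Cyp2c29, Cyp2c38, Cyp2c39 and Cyp2c50, and Cyp2c40 higher. Of all genes it called 9.91% lower and 8.58% higher. In edgeR the 1 rise and 1 fall were each 7.69% of the 13, against 5.41% and 5.43% of all genes.

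Cyp2c70, which makes muricholic acids from chenodeoxycholic acid in mice, had the highest mean FPKM of the subfamily, 223. It had 439, 227 and 405 CPM in the HFD libraries and 660, 300 and 785 CPM in the HTG libraries, with overlap because HTG library 2 was below HFD libraries 1 and 3 (log2 fold change 0.70, standard error 0.39, adjusted p = 0.305 in edgeR). Cyp2c23, an arachidonic acid epoxygenase placed apart at 43993461 to 44017647 on chromosome 19, is named after its values were seen: its HTG libraries, at 322 to 435 CPM, lay above its HFD libraries, at 186 to 301 CPM, with an adjusted p of 0.173 in edgeR (log2 fold change 0.60, standard error 0.24).

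CYP2D transcripts summed to 1387 to 1474 FPKM in the HFD group and 1140 to 1435 FPKM in the HTG group, with overlap. As a share of the summed FPKM of each library they took 0.328%, 0.344% and 0.340% with HFD. With HTG they took 0.298%, 0.272% and 0.223%, without overlap between the groups. The summed FPKM over all genes, the divisor here, was itself higher with HTG, at 478690 to 527047 against 407973 to 441305. Cyp2d26, the CYP2D gene with the highest mean FPKM, had 772, 851 and 755 CPM in the HFD libraries and 871, 671 and 704 CPM in the HTG libraries (log2 fold change -0.08, standard error 0.21). Cyp2d9, a male-biased steroid hydroxylase of mouse liver, had 809 to 1303 CPM in the HFD group and 638 to 868 CPM in the HTG group, with overlap (log2 fold change -0.47, standard error 0.25). Cyp2d10 was lower in all HTG libraries by a small margin (log2 fold change -0.23, standard error 0.20, adjusted p = 0.502 in edgeR).

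Cyp2d13 was the CYP2D gene that rose. It lies at 82520388 to 82526247 on the minus strand of chromosome 15, and it had 387, 263 and 301 CPM with HFD and 584, 979 and 722 CPM with HTG. No HTG library overlapped the HFD range, and the means of 317 ± 63.7 and 762 ± 201 CPM (SD, n = 3 per group) gave a difference of 1.26 on the log2 scale (standard error 0.27, adjusted p = 0.0599 in edgeR). The nearby pseudogene Cyp2d37-ps, which may share reads with Cyp2d13, had 154.8, 81.8 and 194.4 CPM in the HFD libraries and 225.8, 364.3 and 347.2 CPM in the HTG libraries and rose as well (log2 fold change 1.12, standard error 0.34, adjusted p = 0.0978 in edgeR). Cyp2d11 was low throughout, at 4.21, 16.9 and 6.28 CPM in the HFD libraries and 4.20, 3.08 and 3.37 CPM in the HTG libraries. HFD library 2 set most of its difference: the log2 fold change of -1.36 (standard error 0.48, adjusted p = 0.133 in edgeR and 0.031 in DESeq2) became -0.57 without that library. Cyp2d12, Cyp2d22 and Cyp2d40 overlapped between the groups, with log2 fold changes from -0.56 to 1.44.

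Cyp2e1 varied widely within both groups. It had 8260, 9908 and 4082 CPM in HFD libraries 1, 2 and 3, and 7136, 3812 and 4054 CPM in HTG libraries 1, 2 and 3. HFD library 3 was nearly as low as HTG libraries 2 and 3, and HTG library 1 was nearly as high as HFD library 1. The means were 7417 ± 3004 and 5000 ± 1853 CPM (SD, n = 3 per group), and the log2 fold change of -0.57 (standard error 0.40) had an adjusted p of 0.412 in edgeR.

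**Figure D4:**
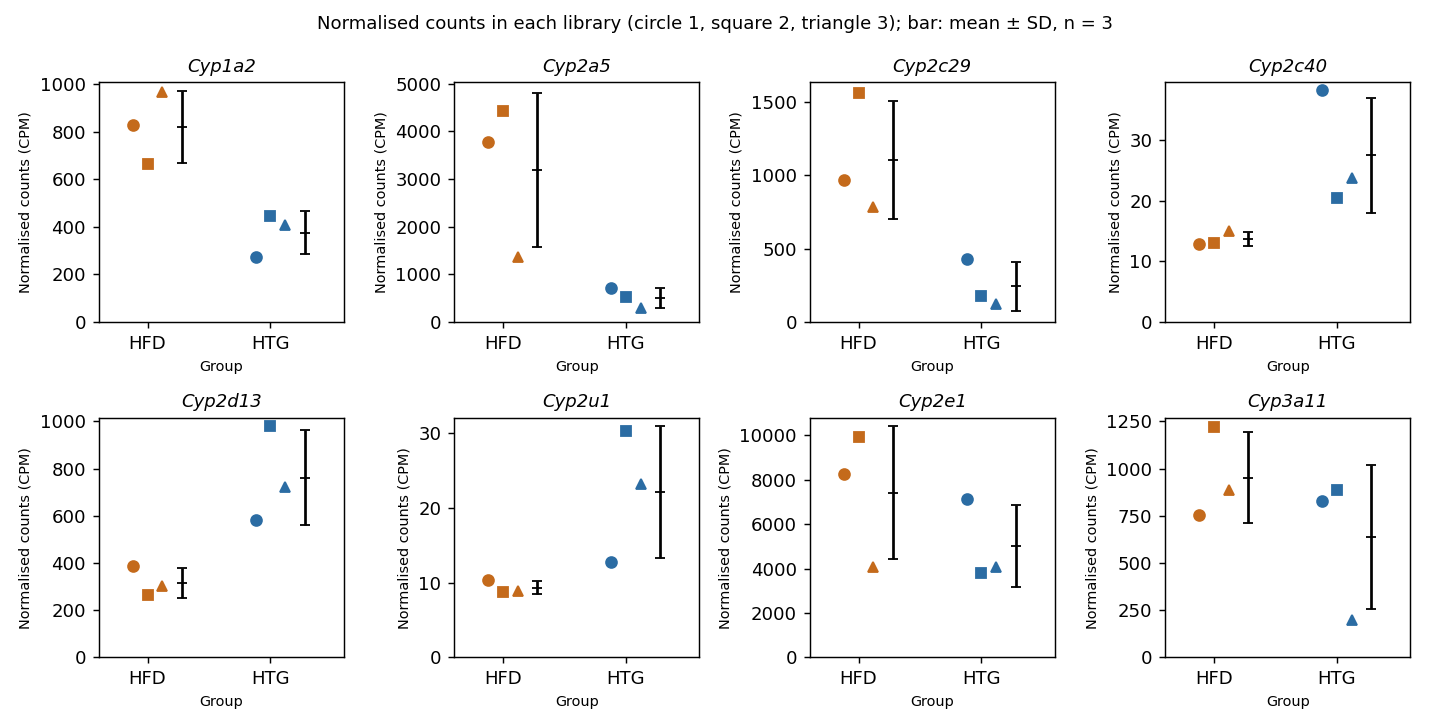
Normalised counts (CPM, vertical axes from 0) in each library for the 6 P450 genes with an adjusted p under 0.1 and for Cyp2e1 and Cyp3a11, with the group on the horizontal axis and the mean ± SD of 3 libraries beside the points. The groups do not overlap in the 6 called genes, and they overlap in Cyp2e1 and Cyp3a11.

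Of the smaller subfamilies only Cyp2u1 was called. This gene, which hydroxylates long-chain fatty acids, lies on chromosome 3 at 131082090 to 131096873 on the minus strand. It had 10.3, 8.71 and 8.95 CPM in the HFD libraries and 12.8, 30.4 and 23.2 CPM in the HTG libraries, HTG library 1 being the closest to the HFD range. The rise was 1.25 on the log2 scale (standard error 0.30, adjusted p = 0.0631 in edgeR) and ran from 0.95 to 1.48 when 1 library was left out. Cyp2f2, known from naphthalene oxidation in lung and from the periportal liver, had 545, 403 and 670 CPM in the HFD libraries and 332, 334 and 474 CPM in the HTG libraries. HTG library 3 lay above HFD library 2, and the log2 fold change stood at -0.50 (standard error 0.26, adjusted p = 0.273 in edgeR).

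Among the 5 CYP2J genes, arachidonic acid epoxygenases, Cyp2j5 had the highest mean FPKM. It had 377, 379 and 393 CPM in the HFD libraries and 347, 207 and 357 CPM in the HTG libraries. HTG library 2 was far below the other libraries, and although the groups did not overlap the log2 fold change was small, -0.33 (standard error 0.25, adjusted p = 0.435 in edgeR). Cyp2j6 stayed between 53.8 and 73.9 CPM in all libraries, and Cyp2j8 and Cyp2j9 overlapped between the groups. Cyp2r1, a vitamin D 25-hydroxylase, had 13.1, 8.44 and 12.0 CPM in the HFD libraries and 9.18, 6.12 and 7.32 CPM in the HTG libraries (log2 fold change -0.57, standard error 0.25, adjusted p = 0.198 in edgeR). Cyp2g1, a gene of the olfactory epithelium, had 28 to 120 counts, and Cyp2s1 and Cyp2t4 had at most 32 counts. None of these 3 was called (log2 fold changes 0.59, -1.27 and -0.91, standard errors 0.48, 1.17 and 1.13).

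No CYP3A gene was called, in edgeR at an adjusted p under 0.1 or an unadjusted p under 0.05 (0 genes each) or in DESeq2 (0 genes), and 5 of the 9 were too low to test. Cyp3a25 was the highest by mean FPKM, with 432, 425 and 343 CPM in the HFD libraries and 430, 920 and 425 CPM in the HTG libraries. HTG library 2 alone was high, and without it the log2 fold change of 0.57 (standard error 0.33) became 0.10. Cyp3a59 showed the same library standing out, with 55.7 CPM in HTG library 2 against 10.03 to 18.1 CPM in the others. Cyp3a11, the main drug-metabolising CYP3A gene of mouse liver and a PXR target, is named after its values were seen. It had 752, 1218 and 886 CPM in the HFD libraries and 829, 888 and 197 CPM in the HTG libraries, so that HTG library 3 alone was low (log2 fold change -0.58, standard error 0.50, adjusted p = 0.509 in edgeR). Cyp3a13 had 172 to 259 CPM and 146 to 299 CPM (log2 fold change -0.03, standard error 0.29).

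P450 genes known to differ between the sexes were read next. Of 5 male-biased genes of mouse liver, families 4 and 7 included, Cyp2u1 rose and none fell. Of 10 female-biased genes 4 were tested, Cyp2c40 rose and none fell, and Cyp2b9, Cyp2b13, Cyp3a16, Cyp3a41a, Cyp3a41b and Cyp3a44 were too low to test. The 1 rise in each list was 20% of the 5 male-biased and 25% of the 4 female-biased genes tested, against 5.41% of all genes. Both are among the P450 rises given above, and the medians of the lists were -0.09 and 0.39. The 36 protein-coding P450 genes of the other families had 28 tested, of which 0 rose and 2, Cyp39a1 (-2.90) and Cyp4v3 (-0.65), fell in edgeR. The falls were 7.14% of the 28, where 5.43% of all genes fell and 5.41% rose. DESeq2 called 1 higher and 4 lower of the 28, against 8.58% and 9.91% of all genes. As many had an unadjusted p under 0.05 in edgeR. The median log2 fold change of these other families was -0.29. By the Gene Ontology terms in the table, 29 of the 54 genes carried arachidonic acid epoxygenase activity. The 25 tested had a median of -0.22 with 1 higher and 1 lower, where 5.41% of all genes rose and 5.43% fell.

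The 3 receptors that induce these genes were not called. Ahr had a log2 fold change of 0.14 (standard error 0.31), PXR (Nr1i2) of -0.23 (standard error 0.28) and CAR (Nr1i3) of 0.15 (standard error 0.39), all with overlapping groups, and the sign of each turned when certain single libraries were left out (Ahr -0.34 without HTG library 3, Nr1i2 0.15 without HFD library 2, Nr1i3 -0.18 without HFD library 3). Among 7 receptors and partners only Rxra, the partner of CAR and PXR, fell, with 397 ± 28.3 CPM under HFD and 239 ± 32.6 CPM under HTG (SD, n = 3 each, log2 fold change -0.73, standard error 0.20, adjusted p = 0.0785 in edgeR). Rxra was 14.3% of the 7, against 5.43% of all genes that fell. Of 14 liver transcription factors Foxa1, Foxa2 and Nr0b2 rose, by 0.72, 0.91 and 0.92 on the log2 scale. None fell, and the median over the list was 0.14. The rises were 21.4% of the list, against 5.41% of all genes. Foxa1 and Foxa2 were not called without the filter on low counts, nor was Foxa2 in limma, and both were called in only 1 of the 6 fits that each lacked 1 library, the one without HTG library 1. None of the 4 PAR-bZIP factors Dbp, Tef, Hlf and Nfil3, which carry clock output to P450 genes, was called by edgeR or DESeq2. None had an unadjusted p under 0.05 in edgeR, and their median was 0.24. Of 8 growth hormone signalling genes Cish rose although its groups overlapped (log2 fold change 1.49, standard error 0.43, median of the list 0.43). Cish was 12.5% of that list, against 5.41% of all genes that rose.

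Genes that serve the enzymes were read in the same fit. Por, which passes electrons to every microsomal P450, fell, with 833 ± 328 CPM under HFD and 367 ± 134 CPM under HTG (SD, n = 3 each, log2 fold change -1.18, standard error 0.36, adjusted p = 0.0977 in edgeR), and Cyb5b, an outer mitochondrial cytochrome b5, fell from 328 ± 100.4 to 142 ± 20.7 CPM (log2 fold change -1.21, standard error 0.26). They were 2 of 6 genes listed as electron donors, although Cyb5b is mitochondrial and not of the endoplasmic reticulum. None of the 6 rose, and the falls were 33.3%, against 5.43% of all genes. All HTG libraries lay below all HFD libraries in 4 of the 6, against 15.5% of all genes. Por was no longer called without the filter on low counts or when any library but HTG library 1 was left out. In the heme pathway, 3 of 12 genes fell (25%, against 5.43% of all genes) and 1 rose (8.33%, against 5.41%). Alas1, the rate-limiting enzyme of heme synthesis, fell, with 992 ± 533 CPM under HFD and 383 ± 38.1 CPM under HTG (SD, n = 3 each, log2 fold change -1.37, standard error 0.36, adjusted p = 0.0747 in edgeR), Fech, which inserts iron, fell by 0.61 and the heme oxygenase Hmox2 by 0.65 on the log2 scale. Ppox, an earlier step of the same pathway, rose by 0.90.

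Other targets of the xenobiotic receptors had negative medians. Of 6 AHR targets outside the P450 genes, 5 were tested, Nqo1 (-1.11) and Ugt1a6b (-1.49) fell and none rose. The 2 falls were 40% of those tested, against 5.43% of all genes. The median of -0.91 is the value of Ahrr (standard error 0.73), a gene with 4 to 24 counts that is also among the 7 receptors and partners. Of 18 CAR and PXR targets 5 fell and none rose, the log2 fold changes being -3.04 for Gsta1, -2.26 for Gstm3, -1.62 for Akr1b7, -1.46 for Abcb1a and -0.78 for the bilirubin transferase Ugt1a1. The median of that list was -0.78, HTG lay below HFD without overlap in 9 of the 18 (15.5% of all genes, with 5.43% called lower), and Gsta1, Akr1b7 and Abcb1a had under 10 CPM in both groups on average. Genes of the UGT1A locus share exons, so Ugt1a1 and Ugt1a6b may share reads.

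**Figure D5:**
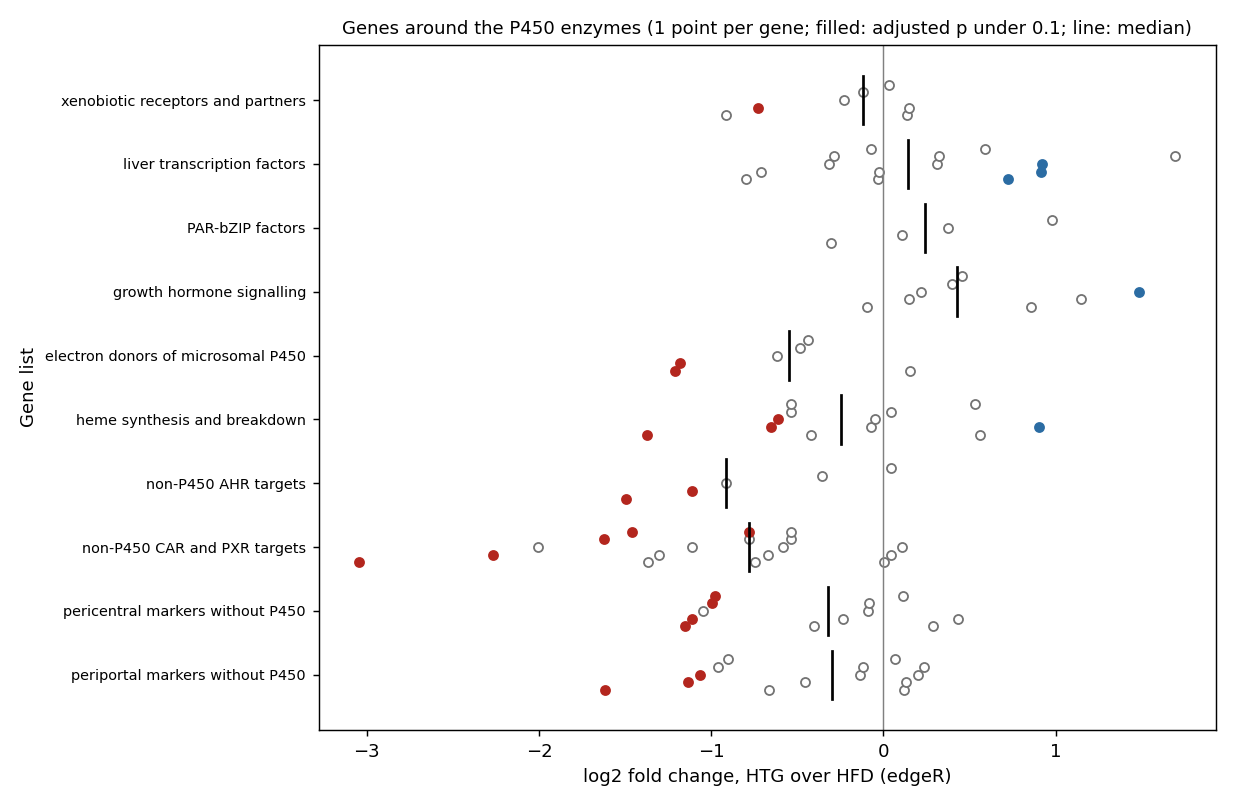
Log2 fold change of HTG over HFD for the tested genes of 10 lists around the P450 enzymes, 1 point per gene, filled at an adjusted p under 0.1, with the median of each list as a line. The medians of the liver transcription factors (0.14), PAR-bZIP factors (0.24) and growth hormone signalling genes (0.43) lie to the right of 0, and those of the other 7 lists lie between -0.91 for the AHR targets and -0.12 for the receptors.

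Several P450 genes mark liver zones, Cyp2e1 and Cyp1a2 the pericentral and Cyp2f2 the periportal zone, so other zone markers were read beside them. Of 12 pericentral markers Glul (-0.99), Oat (-1.11), Slc1a2 (-0.98) and Gulo (-1.15) fell and none rose. The falls were 33.3% of the list, against 5.43% of all genes. Of 14 periportal markers Cps1 (-1.62), Ass1 (-1.14) and Pigr (-1.07) fell and none rose, the falls being 21.4% of that list. The summed level of the pericentral list was 1536 to 1838 FPKM in the HFD group and 982 to 1312 FPKM in the HTG group, and that of the periportal list was 3770 to 4247 FPKM against 2290 to 2599 FPKM, so neither list overlapped between the groups. Gene by gene, HTG lay below HFD without overlap in 5 of the 12 and 5 of the 14, against 15.5% of all genes. Among 8 hepatocyte markers Apoa1 rose (1.24) and Apob fell (-1.05), with a median of -0.27, and the summed level overlapped. The 1 rise and 1 fall were each 12.5% of the 8, where 5.41% of all genes rose and 5.43% fell. Without overlap, HTG lay below HFD in 4 of the 8 and above it in 1, against 15.5% and 16.5% of all genes. Of 6 Kupffer cell and macrophage markers Adgre1 fell (-1.53), and their sum was 106 to 282 FPKM with HFD and 103.2 to 207 FPKM with HTG. Of 5 cholangiocyte markers Sox9 rose (0.79), with sums of 49.4 to 61.4 and 33.2 to 66.4 FPKM. The list had a median of -0.08, with 3 of the 5 fitted lower, and DESeq2 called 1 other marker lower at an adjusted p under 0.1. Of 7 stellate cell and fibroblast markers Reln fell (-0.70), with sums of 19.2 to 30.8 and 16.9 to 25.3 FPKM. That list had a median of -0.30, with 2 of the 7 fitted higher and 1 of them above HFD without overlap. Adgre1, Sox9 and Reln were 16.7%, 20% and 14.3% of their lists, where 5.41% of all genes rose and 5.43% fell. Of 5 small intestine markers 2 were tested and Apoa4, which mouse liver also expresses, fell (-1.07), while Sis had no count. Apoa4 was 50% of those tested, against 5.43% of all genes. The sums of that list were 465 to 610 FPKM with HFD and 227 to 364 FPKM with HTG. None of 5 endothelial, 5 other leukocyte or 5 red cell markers was called in edgeR, with 0, 0 and 1 of them at an unadjusted p under 0.05 and 0, 0 and 1 called by DESeq2. The part of cell makeup in the P450 values was not tested.

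Fold changes in the whole table moved with transcript length, as implied by count, FPKM and library total. Over the 10889 tested genes whose mean FPKM reached 1 the median log2 fold change was 0.35 for transcripts under 1 kb, 0.08 from 1 to 2 kb, -0.05 from 2 to 4 kb and -0.09 at 4 kb and over. The 34 P450 genes in that set had implied lengths from 1.67 to 5.52 kb (median 2.19 kb) and a median log2 fold change of -0.23. Of the 6 called genes Cyp2a5, Cyp1a2 and Cyp2c29 had implied lengths of 2.18, 2.12 and 3.22 kb, and Cyp2c40, Cyp2d13 and Cyp2u1 of 2.15, 3.42 and 5.52 kb. The part of length in single P450 values was not tested.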

How the data were processed

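RNA sequencing of liver in 3 HFD and 3 HTG samples was analysed, grouped by sample title. Whole-number estimated counts, unscaled, and FPKM values, scaled to transcript length and library size, were deposited by the authors for every gene. The submitters' processing notes name HISAT2, StringTie and SAMtools, without versions, and the rat build mRatBN7.2, although the rows are mouse genes. Whether counting used the strand is not given in the sources used here. The RefSeq promoters at hand are of rat and were not used, so no sequence is printed.

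Counts were tested in R 4.3.3 with edgeR 4.0.16 (TMM, filterByExpr, glmQLFit, glmQLFTest) over the whole table, with the group as the only term. Standard errors are the log2 fold change divided by the root of its F statistic. P-values set the difference between the groups against the spread between these samples, which may be partly technical. The members and gene lists, and the threshold of 0.1, were chosen with earlier results of these data known. Named were the member with the highest mean FPKM of each subfamily, members called, members without overlap at an absolute log2 fold change over 1, and list genes called, besides Ahr, Nr1i2, Nr1i3 and Por. Further members given with values, such as Cyp2a4, Cyp2a12, Cyp2d9, Cyp2d10, Cyp2j6, Cyp3a13 and Cyp3a59, were named outside this rule. A symbol on several rows was read from the row with the most counts. A gap over 1 Mb started a new chromosomal block. Alternatives were DESeq2 1.42.0, limma 3.58.1 on FPKM with a pseudocount of 0.1 or 1 (mean FPKM of at least 1), filters, scalings, a replicate block, counts divided by 4 and each library left out. Sums without Cyp2d13 or Cyp2e1, or as a share of the library, were added after the data were seen. Each test was first tried on simulated counts with known changes.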

Additional observations from a re-analysis of the deposited data

How the results depend on the processing

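The same 6 genes were called without a filter, with at least 10 counts in every library, with DESeq2's size factors, with upper-quartile scaling and with counts divided by 4, and they were among the calls of DESeq2 and limma, where 3 genes were again higher and 8 (DESeq2) or 5 (limma, with either pseudocount) were lower. At an adjusted p under 0.05 edgeR called 0 higher and 0 lower, and at an unadjusted p under 0.05 with an absolute log2 fold change over 1 the counts were 3 and 7. Leaving out 1 library gave 0 to 3 genes higher and 0 to 5 lower, with 0 of both without HFD library 1, HFD library 2, HFD library 3, HTG library 2 or HTG library 3. The replicate numbers were not taken as pairs in the main fit. Deviations of same-numbered libraries correlated with r of -0.08, -0.07 and 0.10 across genes. With 3 libraries per group such correlations cannot decide whether the samples were paired. With the replicate block 0 genes were higher and 0 lower, as for the whole table. Of the 3 libraries per group, only number 3 correlated best with its own number. The median log2 fold change of the P450 genes tested, -0.23, moved to -0.10 without a filter, -0.074 with at least 10 counts in every library and -0.14 with counts divided by 4, where other genes entered or left, and ran from -0.36 to -0.10 when 1 library was left out. The log2 ratio of summed FPKM was -0.58, and -0.75 to -0.45 without 1 library. Signs turned for the 3 receptors: Ahr was -0.013 and -0.0047 in limma with a pseudocount of 0.1 and 1 and ran from -0.34 to 0.35 when 1 library was left out, Nr1i2 from -0.44 to 0.15 and Nr1i3 from -0.18 to 0.39, and Nr1i3 was -0.05 without HTG library 1. The cause was not tested. Of the 31 other genes named as called, DESeq2, at least 10 counts in every library and counts divided by 4 kept all 31, DESeq2's size factors lost Foxa1, upper-quartile scaling lost Nqo1 and Reln, limma lost Foxa2 (and Sox9 with a pseudocount of 0.1) among the 28 it tested, and the fit without a filter kept 18, losing Abcb1a, Akr1b7, Apob, Fech, Foxa1, Foxa2, Glul, Hmox2, Nqo1, Por, Reln, Rxra and Sox9. The replicate block kept 0. Without HTG library 1, 27 were kept (not Abcb1a, Akr1b7, Gstm3 or Sox9), without HFD library 1 4, without HFD library 2 1, and without any other library 0. Depth limits the genes with few fragments, such as Cyp1a1, Cyp2b10, Cyp2s1 and Cyp2t4.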
